A study of Mus musculus with 4 samples.

Results

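The SIBLING genes (small integrin-binding ligand, N-linked glycoproteins) are 5 genes that lie side by side on mouse chromosome 5 in the order Dspp, Dmp1, Ibsp, Mepe and Spp1. CTCF binding around them was taken as every CTCF peak that overlapped chr5:104400000-105050000 of the mouse build mm9, a window of 650 kb. Peaks of the 3 stages that shared at least 1 bp were merged into regions, called sites here. The window held 31 sites of the 70742 in the whole series, built from 29 day 0 peaks, 23 day 9 peaks and 24 day 28 peaks. The sites are numbered S1 to S31 from left to right, and no site held more than 1 peak of a list. The genes were placed only as near 104.60 to 104.87 Mb, and this stretch of 270 kb is called the gene span. No gene annotation of mm9 was used, so no site was assigned to a gene, exon or promoter.

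The SIBLING proteins are acidic, phosphorylated proteins of the mineralized matrix, and share an integrin-binding RGD sequence. Dspp encodes dentin sialophosphoprotein, a precursor cleaved into the main non-collagenous proteins of dentin. Dmp1 encodes dentin matrix protein, made largely by osteocytes and needed for mineralization and phosphate balance. Ibsp encodes bone sialoprotein, which nucleates hydroxyapatite, and is a marker of mature osteoblasts. Mepe encodes matrix extracellular phosphoglycoprotein, whose acidic C-terminal peptide inhibits mineralization. Spp1 encodes osteopontin, an adhesive protein that binds mineral and slows crystal growth. CTCF is a zinc-finger protein known from insulators. Together with cohesin it holds the feet of many chromatin loops, and such loops can separate a gene cluster from its neighbours.

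MC3T3-E1 subclone 4 is a preosteoblast line that was derived from mouse calvaria (strain C57BL/6 per the labels) and was used at passages 28 to 31. Cells were taken while proliferating at day 0, while depositing matrix at day 9 and while mineralizing at day 28. Differentiation was driven with ascorbic acid (280 µM) and beta-glycerophosphate (10 mM). All samples come from this 1 cell line and were precipitated with the same CTCF antibody. Per the labels, 2 independent repeats were made at each stage and 2 input libraries from day 9 cells, but each stage is represented by 1 peak list, and the input was not analysed here. There is thus no replicate error, and stages were compared without a test or a p-value. The lists held 67679 (day 0), 42774 (day 9) and 45793 (day 28) peaks, and the read depth behind them is unknown. RNA of the 5 genes was not measured in these files.

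All 5 genes were found by symbol in a RefSeq table of a different build, GRCm38.p6, which was used only for names and order. In it the genes follow each other with no other protein-coding gene between them, and a long non-coding RNA gene, Gm31048, lies between Dmp1 and Ibsp. The nearest protein-coding neighbours are Sparcl1 before Dspp and Pkd2 after Spp1. RefSeq promoter windows (250 bases before and 50 bases after a start) were found for Dmp1, Ibsp, Mepe and Spp1, all on the plus strand. They are shown to identify the members by sequence, since the sequence under the mm9 peaks could not be read. The window of the first start of each gene is printed 5′ to 3′, with the letters GATTGG in capitals.
Dmp1 (GRCm38.p6 chr5:104197325-104197624, plus strand): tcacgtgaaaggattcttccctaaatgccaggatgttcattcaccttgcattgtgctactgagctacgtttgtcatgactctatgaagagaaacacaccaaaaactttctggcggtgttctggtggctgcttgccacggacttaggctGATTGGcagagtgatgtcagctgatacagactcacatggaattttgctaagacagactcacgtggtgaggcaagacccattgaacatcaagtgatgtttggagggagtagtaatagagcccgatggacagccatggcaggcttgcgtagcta
Ibsp (GRCm38.p6 chr5:104299037-104299336, plus strand): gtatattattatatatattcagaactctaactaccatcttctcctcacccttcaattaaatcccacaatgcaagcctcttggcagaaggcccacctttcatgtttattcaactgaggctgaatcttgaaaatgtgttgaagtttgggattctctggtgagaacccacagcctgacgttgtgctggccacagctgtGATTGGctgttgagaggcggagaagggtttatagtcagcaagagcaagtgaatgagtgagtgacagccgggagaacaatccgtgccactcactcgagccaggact
Mepe (GRCm38.p6 chr5:104325079-104325378, plus strand): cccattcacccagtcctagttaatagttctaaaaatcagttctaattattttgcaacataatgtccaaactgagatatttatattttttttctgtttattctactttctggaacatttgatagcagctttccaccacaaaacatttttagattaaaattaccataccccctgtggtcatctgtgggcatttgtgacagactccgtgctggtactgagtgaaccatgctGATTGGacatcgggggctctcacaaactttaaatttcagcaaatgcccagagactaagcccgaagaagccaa
Spp1 (GRCm38.p6 chr5:104434861-104435160, plus strand): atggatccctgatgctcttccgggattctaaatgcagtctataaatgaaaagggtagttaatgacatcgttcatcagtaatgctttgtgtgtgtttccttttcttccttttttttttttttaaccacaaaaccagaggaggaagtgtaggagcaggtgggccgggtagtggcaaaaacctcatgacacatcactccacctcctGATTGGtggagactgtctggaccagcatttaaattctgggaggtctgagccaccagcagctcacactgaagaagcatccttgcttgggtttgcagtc

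These positions are not mm9 positions and cannot be set against the peaks. The letters AGGNGGC, from the core of the CTCF motif (N is any base), were searched on both strands. They matched none of these 4 windows, nor those of the second start of Dmp1 and of Spp1. They match 29.4% of the 32851 promoter windows of this length. Each of the 4 printed windows held GATTGG, the reverse complement of CCAATC, 1 time. It begins 102 bases before the start in Dmp1, 55 in Ibsp, 22 in Mepe and 47 in Spp1. CCAATC or its reverse complement is found in 16.1% of all windows. These letters contain the CCAAT box, which the factor NF-Y binds, and were chosen after the sequences had been seen. The windows of the second start of Dmp1 and Spp1 did not hold these 6 letters. The shorter CCAAT, in either direction, is found in 37.4% of all windows, in the 4 printed ones and in that of the second start of Dmp1, but not in that of the second start of Spp1.

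The 2 CTCF sites of the window with a saturated score at every stage stood on either side of the gene span as given. Peak scores are the authors' own, one per peak, and are taken to be −10 log10 of the p-value. They rank peaks within a list only. Many peaks are tied at 3100, and the deposited scores above it, up to 3233, were set to 3100 here; peaks at this value are called saturated. Site S13, at chr5:104560309-104561163, had the saturated score at day 0, day 9 and day 28, and its centre lay 39.3 kb to the left of the gene span. Site S27, at chr5:104875045-104875755, was likewise saturated at all stages, and its centre lay 5.40 kb to the right of the span. The limits of the span are rounded to 10 kb, so whether S27 lies beyond the last gene is not known from these files. No other site of the window was saturated at all stages. The count of 2 in 31 sites is near the share over the whole series, 6.63% (4693 of 70742). The distance from S13 to S27 was 314 kb, and 28.8% of the distances between neighbouring sites of this kind were as long. The next such site lay 313 kb to the left of S13, and 1208 kb to the right of S27, a distance reached by 10.4%. Between S13 and S27 lay 13 sites, 8 of them found at all stages.

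**Figure D1:**
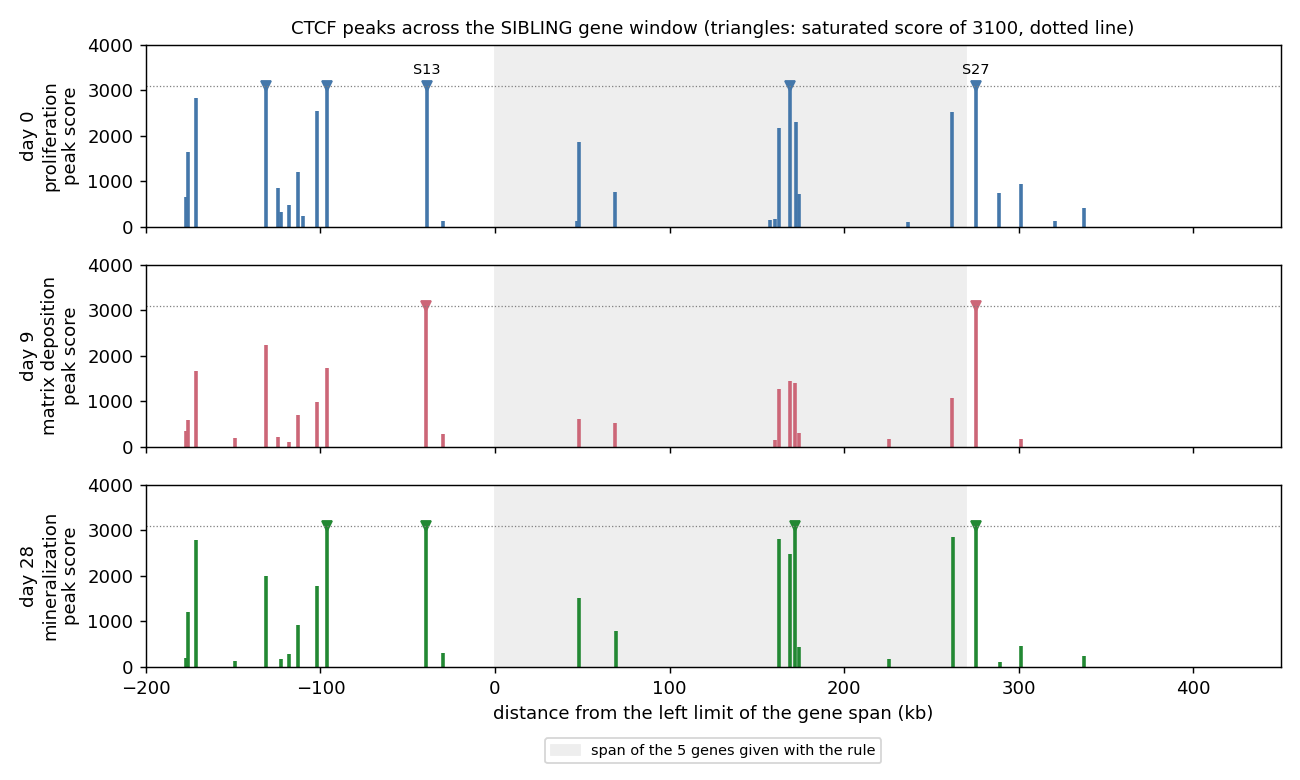
Score of each CTCF peak (vertical axis, 1 line per peak) against the distance from the left limit of the gene span in kb, at day 0, day 9 and day 28. Triangles stand for the saturated score of 3100, and S13 and S27 are the only sites that carry one at every stage.

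Sites were most crowded to the left of the genes. The left flank of 200 kb held 14 sites, or 7 per 100 kb. The gene span held 12 sites in 270 kb, or 4.44 per 100 kb, and the right flank of 180 kb held 5 sites, or 2.78 per 100 kb. Together the sites covered 3.87% of the window. The 31 sites of the window compare with a median of 13 (quartiles 4 and 25) in 4052 windows of 650 kb laid end to end over all chromosomes, and 82.4% of those held 31 or fewer, among them 250 with none. For sites found at all stages, the window held 19, against a median of 6. The gene span alone held 12 sites, against a median of 5 (quartiles 1 and 11) over 9765 windows of 270 kb, and 79.6% of those held as few or fewer. On chromosome 5 alone, 73.1% of 650-kb windows held as few or fewer sites as the SIBLING window. Windows without mappable sequence were not left out of any of these counts.

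**Figure D2:**
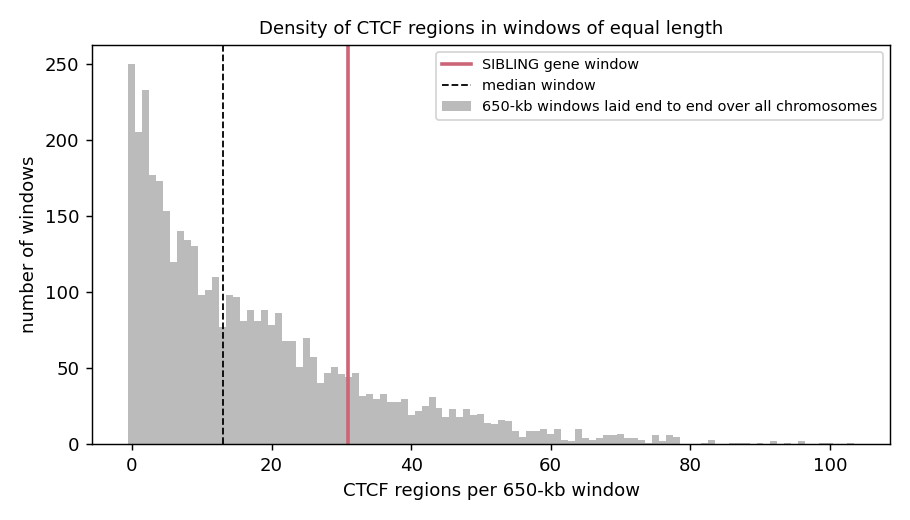
Number of 650-kb windows (vertical axis) by the number of CTCF sites they hold. The red line is the SIBLING gene window with 31 sites, and the dashed line is the median window with 13.

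Within the gene span the sites fell into small groups parted by long empty stretches. The median distance between neighbouring sites of the window was 8.01 kb, against 12.4 kb over all sites. The longest distance between 2 neighbouring sites of the window, 88.0 kb, lay in the gene span between S17 and S18, and 8.64% of all distances between neighbouring sites were as long. Within single lists the stretch began at S17 and ended at S18 at day 0, S19 at day 9 and S20 at day 28. It was 88.1 kb long at day 0, 90.5 kb at day 9 and 92.8 kb at day 28. In the order of the days, 9.23%, 13.7% and 12.5% of the distances in the same list were as long. The next longest between 2 sites of the window, 76.4 kb from S14 to S15, contained the left limit of the gene span, and 10.2% of distances were as long. A stretch of 56.2 kb parted S12 from S13, and 50.4 kb parted S23 from S24 inside the span. The stretch to the right of S31 was longer than these: no site was found there for 152 kb, of which 112 kb lay inside the window, and 4.26% of distances were as long. Among sites found at all stages, the last of the window, S29, was followed by none for 244 kb, of which 148 kb lay inside the window, and 4.98% of the distances between neighbouring all-stage sites of the series were as long. Between 2 all-stage sites of the window the longest distances were 92.7 kb from S17 to S20 (15.6% as long), 86.9 kb from S23 to S26 (16.7%) and 77.3 kb from S14 to S16 (18.9%).

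**Figure D3:**
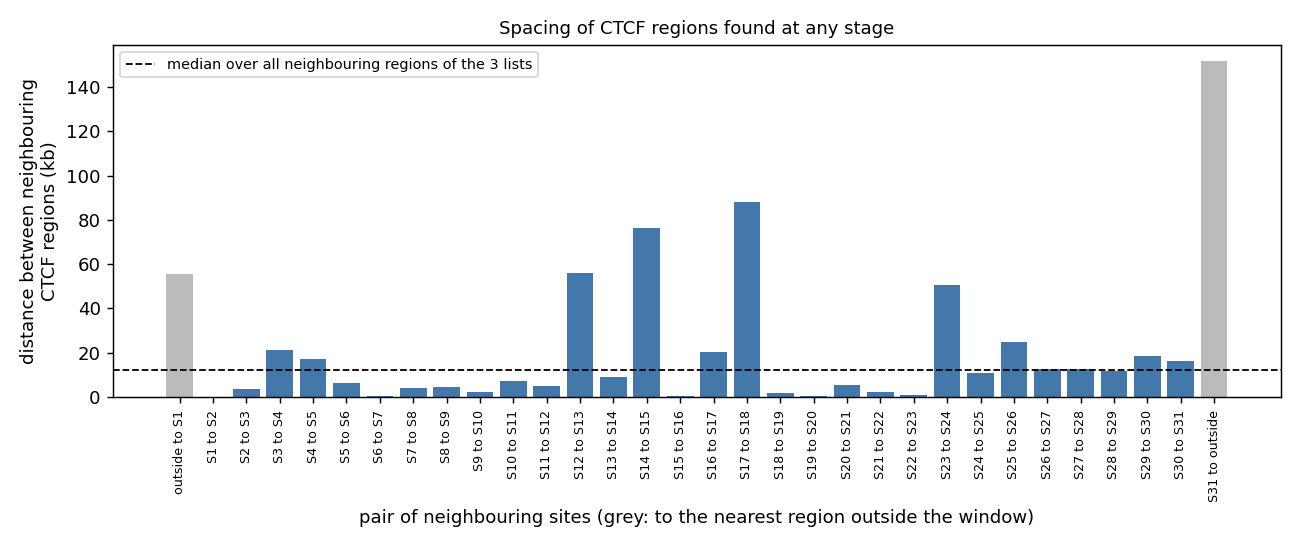
Distance in kb between each pair of neighbouring CTCF sites, in order along the window, with grey bars for the distance to the nearest site outside it. The tallest bar between 2 sites of the window is the 88.0 kb from S17 to S18, the tallest of all is the 152 kb to the right of S31, and the dashed line is the median over all neighbouring sites, 12.4 kb.

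The left part of the gene span held the pair S16 and S17, both found at all stages. Site S16, at chr5:104647831-104648473, scored 1858 at day 0, 613 at day 9 and 1520 at day 28. Site S17, at chr5:104668727-104669370, scored 769 at day 0, 530 at day 9 and 789 at day 28. S16 thus ranked above S17 in each list. A weak day 0 peak, S15 at chr5:104646948-104647272 with a score of 135, lay 0.558 kb to the left of S16.

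To the right of the empty stretch that ends at S18, 6 sites lay within 17.4 kb. Of these, 4 were found at all stages, and 3 of the 4 stood in the upper ranks of each list. Site S20, at chr5:104762072-104763160, scored 2164 at day 0, 1262 at day 9 and 2797 at day 28. Site S21, at chr5:104768684-104769552, was saturated at day 0 and scored 1448 at day 9 and 2468 at day 28. Site S22, at chr5:104771723-104772586, scored 2294 at day 0 and 1406 at day 9 and was saturated at day 28. Their percentiles within their own list, where 100 is the highest score, lay between 69.9 and 91.0. Site S23, at chr5:104773566-104774797, was weaker, with 713 at day 0, 316 at day 9 and 447 at day 28. S18 and S19, which complete the group, were weak and are described with the sites missing at a stage.

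Near the right limit of the gene span stood S26, at chr5:104861709-104862506, with its centre 7.89 kb inside the limit. It scored 2528 at day 0, 1079 at day 9 and 2848 at day 28. S27, the saturated site, followed 12.5 kb farther right. The gene span is given only as near 104.60 to 104.87 Mb, and the position of Spp1, the last gene of the cluster, was not read. On which side of Spp1 S26 and S27 lie thus cannot be said from these files. To the right of S27, only S29 was found at all stages. S29, at chr5:104901180-104901885, scored 946 at day 0, 164 at day 9 and 455 at day 28.

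On the left, the flank began with 12 sites in 81.6 kb, S1 to S12. Among them S5, at chr5:104468461-104469147, was saturated at day 0 and scored 2226 at day 9 and 2005 at day 28. S12, at chr5:104503207-104504093, was saturated at day 0, scored 1739 at day 9 and was saturated at day 28. S3, at chr5:104428557-104429260, scored 2827 at day 0, 1663 at day 9 and 2781 at day 28, so that it ranked above S5 at day 28. S14, at chr5:104570060-104570557, the last site before the gene span, was weak at every stage, scoring 140 at day 0, 285 at day 9 and 301 at day 28. Its width, 275 bp at day 0, was matched or undercut by 2.46% of day 0 peaks.

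As a group, the peaks of the window ranked near the middle of their lists. The 29 day 0 peaks had a median percentile of 59.0, the 23 day 9 peaks one of 54.5 and the 24 day 28 peaks one of 58.7. Ranks ran from 2.58 to 91.0 at day 0, from 4.46 to 94.4 at day 9 and from 4.23 to 90.7 at day 28, where the upper end is the shared rank of the saturated peaks. Saturated peaks numbered 5 of 29 at day 0 (18.1% over the whole list), 2 of 23 at day 9 (11.3%) and 4 of 24 at day 28 (18.7%). In the gene span these counts were 1, 0 and 1. The median peak width was 593 bp at day 0, 553 bp at day 9 and 705 bp at day 28, against 552, 525 and 702 bp over the whole lists. At the 19 sites with a peak in each list, the peak centres of the 3 stages lay within a median of 60.5 bp of each other (24.5 to 297 bp), against 64.5 bp over all such sites.

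**Figure D4:**
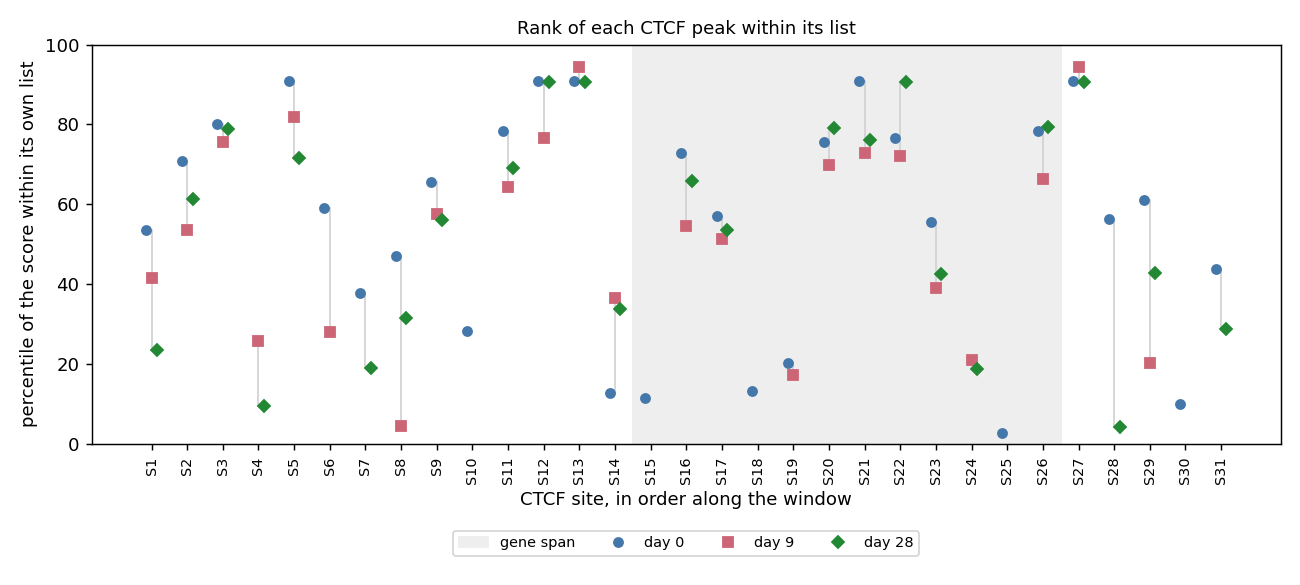
Percentile of each peak's score within its own list (0 lowest, 100 highest) for the 31 sites in order along the window, with circles for day 0, squares for day 9 and diamonds for day 28. S13 and S27 stand at 90.7 or higher at every stage, and the peaks of the sites found at day 0 alone, S10, S15, S18, S25 and S30, stand at 28.4 or lower.

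Most sites were found throughout differentiation. Of the 31 sites, 19 (61.3%, 95% Wilson interval 43.8 to 76.3) had a peak at all 3 stages, against 52.3% of all sites in the series, which lies inside this interval. In the gene span 7 of 12 sites did, in the left flank 10 of 14 and in the right flank 2 of 5. Peaks were found at 29 sites at day 0, at 23 at day 9 and at 24 at day 28. Over all sites these shares were 94.5%, 58.7% and 64.1%. The intervals cover counting error only.

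Another 12 sites were missing at 1 or 2 stages, and their peaks stood at a percentile of 59.0 or lower in the lists that held them. The 5 sites found at day 0 alone were S10 (score 229), S15 (135), S18 (142), S25 (106) and S30 (129), of which S15, S18 and S25 lay in the gene span. Of all sites in the series, 31.1% were found at day 0 alone. No site was found at day 9 alone or at day 28 alone (1.25% and 2.74% of all sites). With all lists shortened to the 42774 peaks of highest score, none of these 5 sites was left.

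Only day 0 lacked a peak at 2 sites (1.50% of all sites). They were S4 in the left flank, at chr5:104450555-104451180, and S24 in the gene span, at chr5:104825160-104825748. S4 had no day 0 peak and scored 196 at day 9 and 129 at day 28. S24 had no day 0 peak and scored 168 at day 9 and 171 at day 28. The highest percentile of these 4 peaks within their lists was 25.8.

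Only day 9 lacked a peak at 3 sites (7.53% of all sites), of which 2 lay in the right flank. S28, at chr5:104888234-104889538, scored 741 at day 0, had no day 9 peak and scored 112 at day 28. S31, at chr5:104937183-104937985, scored 420 at day 0, had no day 9 peak and scored 246 at day 28. S7 in the left flank, at chr5:104476677-104477652, scored 327 at day 0, had no day 9 peak and scored 172 at day 28. Only day 28 lacked a peak at 2 sites (3.60% of all sites). These were S6 in the left flank, at chr5:104475290-104476271, which scored 851 at day 0 and 211 at day 9, and S19 in the gene span, at chr5:104759525-104761662, which scored 176 at day 0 and 151 at day 9. S6 and S7 lay 0.405 kb apart, so joining peaks up to 500 bp apart makes them 1 site found at all stages.

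The numbers in the peak names were also read around the sites missing from a list. Whether a skipped number stood for a peak at such a site was not tested. The numbers run in order along each chromosome, and some were skipped in the deposited lists. What the skipped numbers stood for is not given in the sources used here. The 12 incomplete sites gave 17 cases of a site without a peak at a stage. In 13 of the 17 (76.5%) at least 1 number was skipped between the listed peaks on either side, against 70.6% of such cases over the whole series. These cases are not all separate. S18 and S19 at day 28 share 1 skipped number in the same 92.8 kb, and S30 and S31 at day 9 share 1 in 244 kb. Over such distances a skipped number need not lie near the site. For S7 at day 9 the listed neighbours stood 5.45 kb apart with 1 skipped number, and for S6 at day 28 they stood 7.53 kb apart with 1. For S10 they stood 10.2 kb apart at day 9 and 10.0 kb apart at day 28, each with 1. No number was skipped around S15 at day 9, around S25 at day 9 and at day 28, or around S30 at day 28. From S17 to the next listed peak on its right, no number was skipped at day 0, where that peak is S18. At day 9 that peak is S19, 90.5 kb away, and 2 were skipped. At day 28 it is S20, 92.8 kb away, and the 1 skipped number is the one named above for S18 and S19. These intervals take in S18, and at day 28 also S19, so the skipped numbers need not lie in the empty stretch. Across the stretch from S12 to S13 none was skipped at any stage.

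To set the stages side by side, scores were ranked over the same 23673 regions in each list, those with exactly 1 peak per list and no saturated score. Of the 19 all-stage sites of the window, 13 belonged to this set, and the other 6 (S5, S12, S13, S21, S22 and S27) were saturated at 1 or more stages. The 13 sites did not move together. Day 9 stood above day 0 at 7 of the 13 (50.1% of all regions in the set), with a median difference of 1.81 percentile points (-28.0 to 41.3). Day 28 stood above day 9 at 8 of the 13 (49.2% of all), with a median of 1.43 points (-32.5 to 26.7). Day 28 stood above day 0 at 10 of the 13 (49.3% of all), with a median of 7.06 points (-13.8 to 30.2). These 3 comparisons share lists, so they are not independent of each other. Over the whole set the quartiles of the differences were -13.6 and 13.4 points for day 9 minus day 0, -10.3 and 9.65 for day 28 minus day 9, and -16.4 and 15.8 for day 28 minus day 0.

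The 3 sites that differed most between day 0 and day 9 were S14, S17 and S29. S14 and S17, both higher at day 9, each stand at the left end of one of the long empty stretches. Among sites found at all stages so does S29 (244 kb), which was lower at day 9. S23, at the left end of 50.4 kb, differed by 11.5 points. Whether rank goes with spacing was not tested. S14 stood at 1.97 at day 0, 43.3 at day 9 and 32.1 at day 28. With all lists shortened to equal size, the weak day 0 peak of S14 was dropped. S14 was then no longer a site found at all stages. S17 stood at 38.9 at day 0, 66.9 at day 9 and 63.9 at day 28. S29 in the right flank stood at 47.7 at day 0, 19.7 at day 9 and 46.4 at day 28, so that day 9 was the lowest. S8 in the left flank likewise was lowest at day 9, with 22.0, 3.23 and 29.1 in the order of the days. S1, at the left end, was highest at day 9, with 32.4, 51.1 and 18.6.

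In the gene span, S16, S20 and S26 stood in the upper part of this set at every stage. S20 stood at 84.4 at day 0, 93.3 at day 9 and 98.5 at day 28, and S26 at 91.2, 89.1 and 98.8. S16 stood at 77.3, 72.0 and 83.5. In all 5 sites of the span in this set, which also include S17 and S23, day 28 stood above day 0, by 6.26 to 24.97 points. Over all regions in the set this share was 49.3%, and 5 sites are too few to set apart from it. With saturated sites kept, S21 (saturated at day 0) and S22 (saturated at day 28) were added, which made 7 all-stage sites of the span. Their differences, day 28 minus day 0, ran from -12.6 to 30.5 points, so both directions occurred. Saturated peaks share a tied rank, and no share over all regions is given for this setting. A count of rises among these 7 sites therefore cannot be weighed. With 1 list per stage it is unknown whether repeats would give the same order.

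**Figure D5:**
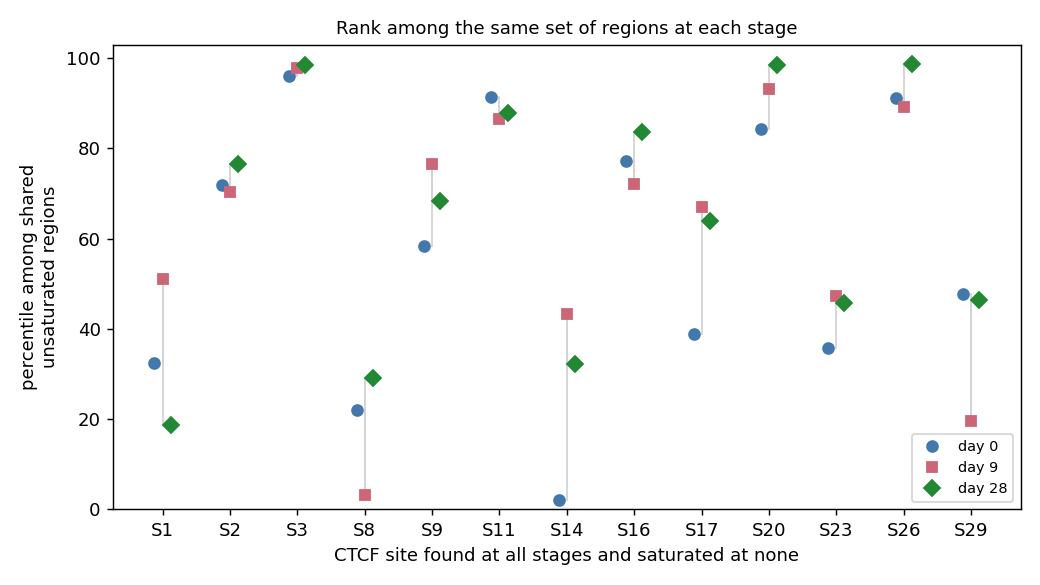
Percentile of 13 CTCF sites of the window among the 23673 regions ranked in every list, with circles for day 0, squares for day 9 and diamonds for day 28. S3, S11, S20 and S26 stand at 84.4 or higher at every stage, while S14 stands at 1.97 at day 0 and at 43.3 at day 9.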

How the data were processed

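CTCF ChIP-seq was carried out in MC3T3-E1 cells at day 0, day 9 and day 28. The submitters' processing notes name MACS 1.4.1, Bowtie 0.12.8 and CASAVA 1.6, and the build mm9. How repeats and input entered is not given in the sources used here. The authors deposited 1 score per peak, read here as −10 log10 of the caller's p-value. Scores above 3100 (up to 3233) were treated as 3100. Depth is unknown.

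Peaks sharing at least 1 bp were merged into regions with Python 3.11.15, NumPy 2.4.6 and SciPy 1.17.1, tested on simulated data. Starts were counted from 1. Windows of equal length were laid end to end from each chromosome's start to its last region, and regions were counted by midpoint. Percentiles give ties their mean rank. Every region of the window is accounted for; those named with positions lie in or next to the gene span, end long gaps, score highest, or miss a stage. Shares carry Wilson intervals. Alternatives were equal list size, a minimum score of 200, an overlap of 50% of the shorter peak, joining over 500 bp, shifted windows, chromosome 5 alone, and saturated regions kept. The members and lists were chosen with earlier results of these data known.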

Additional observations from a re-analysis of the deposited data

How the results depend on the processing

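Of 55 values recomputed under the alternatives, 48 stayed within 1.5 times (counts and distances) or within the 95% interval of the main value. These limits are loose, and the interval of the day 28 median percentile ran from 31.5 to 78.9. The day 9 list is the shortest, so its count (23) and median percentile (54.5) could not change under equal list size. Sites found at day 0 alone numbered 1 under equal list size (S28, whose weak day 28 peak was dropped) and 3 with a minimum score of 200 (S7, S10 and S28), in place of 5. The minimum score of 200 left 7 sites in the gene span in place of 12, and these 7 were found at all stages as before. The share of 650-kb windows with as few sites or fewer was 86.5% under equal list size, 83.8% with the minimum score, 80.6% when peaks up to 500 bp apart were joined and 73.1% on chromosome 5 alone, against 82.4%. No paired analysis was possible because each stage has 1 list. The saturated score hides any order among S13, S27 and other sites at 3100. With depth unknown, a missing peak cannot be told from a weak one.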

Other observations

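Site S19, inside the gene span at chr5:104759525-104761662, combined a low score with a great width, and was picked out after its values were seen. Its day 0 peak was 2138 bp wide with a score of 176, and 3 of the 16396 day 0 peaks scoring under 200 were as wide, itself included. Its day 9 peak was 1920 bp wide with a score of 151, and 10 of the 11318 day 9 peaks scoring under 200 were as wide, itself included. Its centres at day 0 and day 9 lay 73 bp apart. The input was not analysed here, and whether the input shows a like signal was not tested. At day 28 no peak was listed there, and 1 peak number was skipped between S17 and S20.

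Site S28 in the right flank was also wide at day 0, with 1305 bp and a score of 741. Of all day 0 peaks, 5.32% were as wide. It had no day 9 peak, and its day 28 peak was 570 bp wide with a score of 112. The centres of the day 0 and day 28 peaks lay 340.5 bp apart, more than at any site of the window found at all stages, where the spread reached at most 297 bp. Over the whole series, the spread at sites with 1 peak in each list reached 1656.5 bp.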
